A study of Mus musculus with 167 samples.

Results

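The miR-26 family of the mouse was followed through its mature guide strands, mmu-miR-26a-5p and mmu-miR-26b-5p. They are 2 of the 1915 miRNA rows in each of 5 tissue count tables, and were taken by name. The tables hold 167 small RNA libraries from 35 mice: lung, heart, brain, white blood cells (WBC) and red blood cells (RBC). Gnotobiotic C3Hf/Sed/Kam (C3H) females and C57Bl/6 (C57) mice of both sexes received either whole thorax lung irradiation (WTLI), a single exposure of the chest of young adult animals behind shielding of all other regions, or sham irradiation. C3H tissues were taken at month 4 (7 irradiated and 8 sham mice) and C57 tissues at month 6 (5 irradiated, of which 4 were male, and 15 sham, of which 8 were male), from animals still alive at that endpoint. The WBC libraries were fewer, with 6 irradiated and 5 sham for C3H and 5 irradiated and 11 sham for C57. Strain, time after exposure and a dose set separately for each strain cannot be told apart, and survival to the endpoint limits every irradiated group. Organs were homogenised whole, so fewer cells of a type and less miRNA per cell cannot be told apart.

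A mature miRNA guides the silencing complex to target RNAs mainly through its seed, the bases just inside its 5′ end. The miR-26 seed is known for targeting Ezh2, a histone methyltransferase, and the family as a whole is known as one that MYC represses and that holds back cell cycle entry. Each of its hairpins lies in an intron of a gene for a small C-terminal domain phosphatase. From every hairpin the 5p strand is the guide, and the 3p strand, the passenger, is mostly discarded.

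The mature strands are printed because the report turns on how alike they are, with the seed (bases 2 to 8) in capitals, from RefSeq on GRCm38.p6, the assembly behind mm10:
mmu-miR-26a-5p: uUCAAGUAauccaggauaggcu
mmu-miR-26b-5p: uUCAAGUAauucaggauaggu
With positions counted from 1 at the 5′ end and mmu-miR-26a-5p first, they differed at 2 positions, C11U and C21U, and mmu-miR-26a-5p was 22 bases long against 21. Among the 1679 mature mouse miRNA names in the RefSeq table, these 2 were the ones with this seed. RefSeq entries were found for 1623 of the 1915 rows.

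The same mmu-miR-26a-5p sequence is made at chr9:119031811-119031832 (Mir26a-1, an intron of Ctdspl) and at chr10:126995543-126995564 (Mir26a-2, an intron of Ctdsp2), so its reads cannot be split between these loci. mmu-miR-26b-5p comes from chr1:74394324-74394344 (Mir26b, an intron of Ctdsp1). All are on the plus strand, as are the host genes in GENCODE. The Mir26a-1 and Mir26b hairpins overlapped no exon of their hosts, while the last base of the Mir26a-2 hairpin was also the first base of an exon in other Ctdsp2 transcripts. The passenger strands do differ between the loci, and they are shown because they are what separates the hairpins in these data:
mmu-miR-26a-1-3p: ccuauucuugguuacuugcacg
mmu-miR-26a-2-3p: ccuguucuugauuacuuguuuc
mmu-miR-26b-3p: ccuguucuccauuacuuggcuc

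Each library held between 1794995 and 7865102 assigned miRNA counts, called reads here, and levels are given as RPM, counts per 1000000 of these. The tissue labels were checked against defining miRNAs. The cardiac miR-208a-3p was higher in 35 of 35 heart libraries than in every library of another tissue, the neuronal miR-124-3p in 35 of 35 brain libraries, whereas for lung the epithelial miR-200c-3p did so in 34 of 35. WBC and RBC libraries overlapped in their markers. The myeloid miR-223-3p was higher in 13 of 27 WBC libraries than in every library of another tissue, and the erythroid miR-451a in 0 of 35 RBC libraries, with a median of 13189 RPM there. Leukocyte marker sums in C3H sham mice reached 36641 RPM in RBC and 22428 RPM in WBC. Values in the blood fractions are therefore given by the label of the library.

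mmu-miR-26a-5p was one of the most abundant miRNAs of lung and brain, and its level differed widely between tissues. In C3H sham mice the median was 50193 RPM in lung (28211 to 59542, n = 8), 46943 in brain (37517 to 56953, n = 8), 14585 in heart (12163 to 17166, n = 8) and 2706 in RBC (2084 to 3288, n = 8). The 5 C3H sham WBC libraries held 2967, 3610, 1690, 2146 and 6259 RPM. In C57 sham mice the median was 48890 RPM in brain (33873 to 59099, n = 15), 34938 in lung (14137 to 53749, n = 15), 15776 in heart (12531 to 19816, n = 15), 10798 in WBC (4712 to 19488, n = 11) and 5149 in RBC (3511 to 6642, n = 15). Lung, heart and RBC did not overlap in C3H mice, but lung met brain and WBC met RBC. In C57 mice lung met both brain and heart, and the WBC range met those of heart, lung and RBC. By rank within a library, mmu-miR-26a-5p stood between 3 and 13 in lung and between 4 and 10 in brain.

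Since the same mice gave all tissues, the order of the sham levels was tested within mice, by an exact permutation test over sign changes of the log2 RPM difference (two-sided, adjusted over 60 tests by Benjamini-Hochberg). For mmu-miR-26a-5p in C3H mice, brain exceeded heart by 1.70 ± 0.26 on the log2 scale (SD, 8 of 8 mice, exact adjusted p = 0.0134), and lung against brain did not pass (0.00 ± 0.29, exact adjusted p = 1). The next steps down, heart over WBC (2.29 ± 0.65, 5 of 5 mice, exact adjusted p = 0.0798) and WBC over RBC (0.16 ± 0.71, exact adjusted p = 0.708), did not pass, and 5 pairs are too few for the exact test to pass the threshold. In C57 mice brain exceeded lung by 0.51 ± 0.60 (11 of 15 mice, exact adjusted p = 0.0130), lung exceeded heart by 1.08 ± 0.50 (14 of 15, exact adjusted p = 0.000732) and WBC exceeded RBC by 1.03 ± 0.74 (11 of 11, exact adjusted p = 0.00345). Heart against WBC, at 0.59 ± 0.78, did not pass (exact adjusted p = 0.0601). The brain and lung order depends on the total: with the 5 most abundant miRNAs of each tissue taken out of it, lung was 0.57 above brain in C3H mice (exact adjusted p = 0.0130) and the C57 difference was -0.06 (exact adjusted p = 0.661). The most abundant miRNA of lung, the endothelial miR-126a-3p, took 38.7% ± 2.40 of C3H sham lung reads and 12.7% ± 1.61 of C3H sham brain reads, and its own part in the order was not tested.

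**Figure D1:**
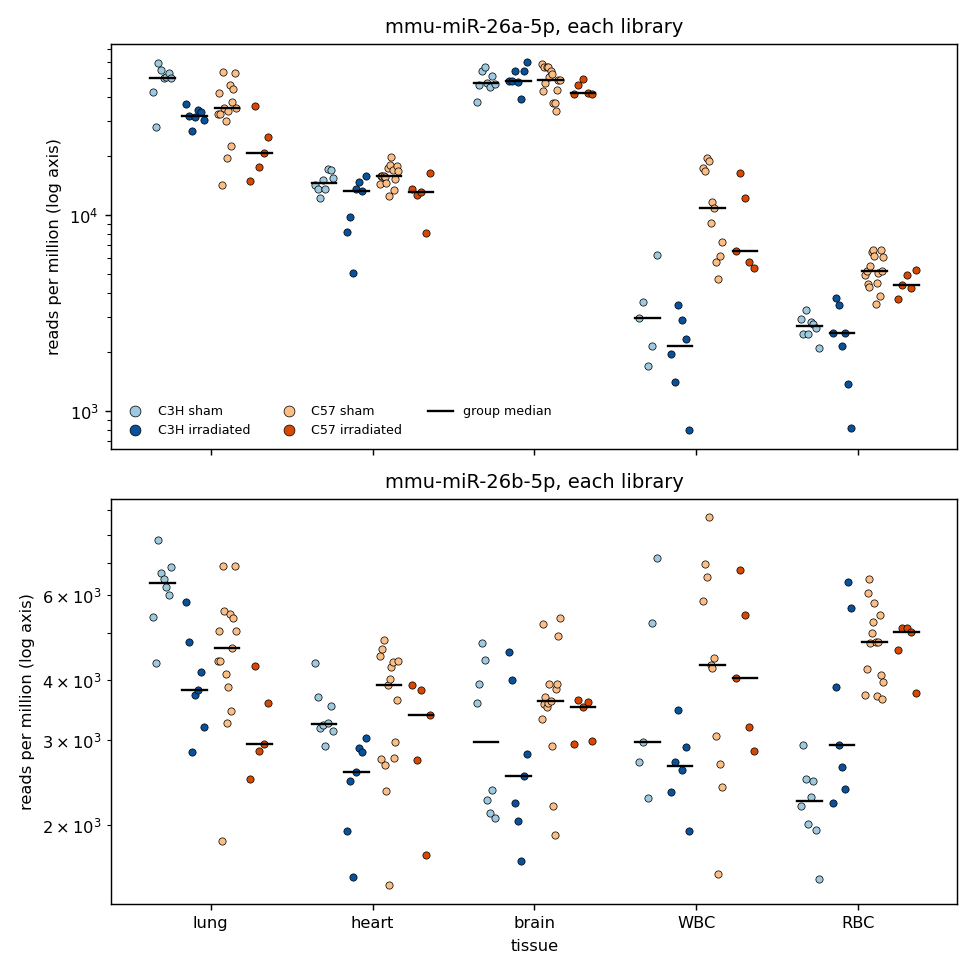
RPM (log axis) of mmu-miR-26a-5p (top) and mmu-miR-26b-5p (bottom) in every library, by tissue (x axis) and group (colour), with a bar at each group median. mmu-miR-26a-5p spans medians from 2140 to 50193, while the medians of mmu-miR-26b-5p lie between 2237 and 6362.

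On the RPM scale mmu-miR-26b-5p, with the same seed, was spread far more evenly. In C3H sham mice the medians were 6362 RPM in lung (4337 to 7804), 3234 in heart (2914 to 4338), 2972 in WBC (2271 to 7166), 2970 in brain (2061 to 4781) and 2237 in RBC (1538 to 2932). In C57 sham mice they were 4786 RPM in RBC (3643 to 6485), 4665 in lung (1850 to 6909), 4286 in WBC (1576 to 8703), 3899 in heart (1496 to 4847) and 3624 in brain (1907 to 5375). Of neighbours in the C3H order, lung over heart passed (0.86 ± 0.39 in log2 RPM, 8 of 8 mice, exact adjusted p = 0.0134), heart against WBC, WBC against brain and brain against RBC did not (exact adjusted p = 0.826, 0.789 and 0.0507). No neighbours passed in the C57 order, with exact adjusted p between 0.348 and 0.803. The differences were 0.07 (RBC minus lung), 0.09 (lung minus WBC), 0.29 (WBC minus heart) and -0.07 (heart minus brain). These orders depend on the total. With the most abundant miRNAs of each tissue taken out of it, the C57 RBC excess over lung was larger. Lung minus WBC and heart minus brain then changed sign in C57 mice, as did brain minus RBC in C3H mice. The values are given with the other processing alternatives below. Of mmu-miR-26b-5p pairs that are not neighbours in C57 mice, RBC exceeded heart by 0.47 ± 0.58 (12 of 15, exact adjusted p = 0.0130) and brain by 0.40 ± 0.51 (12 of 15, exact adjusted p = 0.0168).

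The ratio of mmu-miR-26a-5p to mmu-miR-26b-5p reads within a library does not depend on the total, and it ordered the tissues more sharply than either level. The ratio had a median of 16.9 in C3H sham brain (10.5 to 22.7), 7.78 in lung (6.50 to 8.86), 4.67 in heart (3.27 to 5.28), 1.28 in RBC (0.846 to 1.36) and 0.873 in WBC (0.409 to 1.21). In C57 sham mice the medians were 15.0 in brain (8.17 to 19.4), 7.64 in lung (6.00 to 8.74), 4.65 in heart (3.22 to 8.38), 2.44 in WBC (1.88 to 3.03) and 1.22 in RBC (0.662 to 1.62). Brain, lung and heart followed in the same order in both strains. Within C3H mice brain exceeded lung by 1.03 ± 0.46 in log2 ratio, lung exceeded heart by 0.83 ± 0.22, and heart exceeded RBC by 1.84 ± 0.31, each in 8 of 8 mice (exact adjusted p = 0.0134). Within C57 mice brain exceeded lung by 0.83 ± 0.48 (14 of 15, exact adjusted p = 0.000732), lung exceeded heart by 0.68 ± 0.45 (14 of 15, exact adjusted p = 0.00167), heart exceeded WBC by 0.87 ± 0.58 and WBC exceeded RBC by 1.28 ± 0.50 (both 11 of 11, exact adjusted p = 0.00345). RBC against WBC in C3H mice did not pass (0.49 ± 0.77, 4 of 5 mice, exact adjusted p = 0.306).

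The C3H brain ratio fell into separate clusters that followed a letter in the sample titles, A or B, whose meaning the labels do not state. Sham libraries with letter A held log2 ratios of 3.39 to 3.70 and those with letter B 4.39 to 4.50. In the former mmu-miR-26b-5p was at 3581 to 4781 RPM and in the latter at 2061 to 2359, with no overlap. The irradiated C3H brain libraries showed the same split except for one, since letter A libraries held 3.40, 3.59 and 4.61 and letter B libraries 4.42 to 4.55. In C57 sham brain the letters overlapped (3.03 to 4.28 for A and 3.19 to 4.0 for B).

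**Figure D2:**
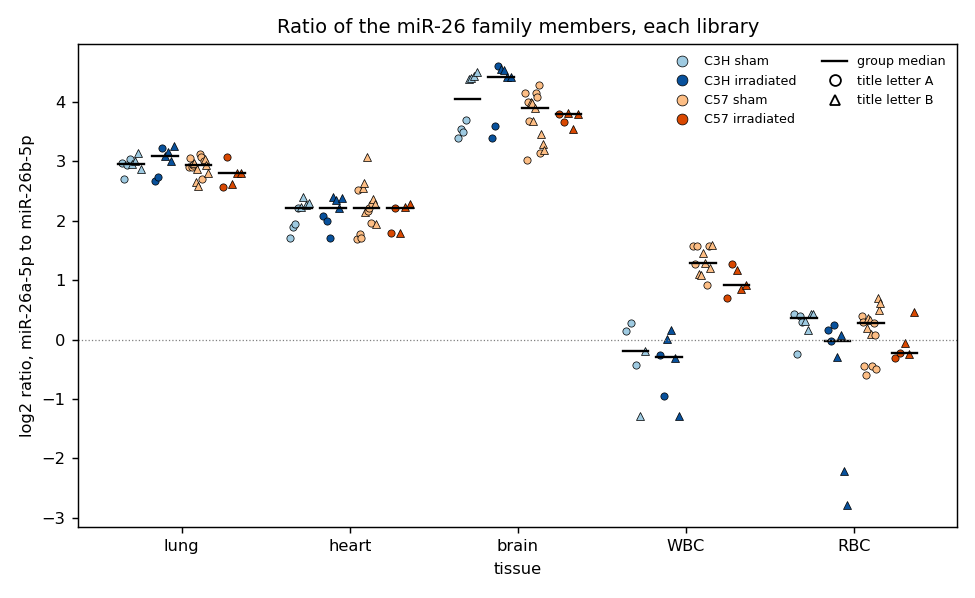
Log2 ratio of mmu-miR-26a-5p to mmu-miR-26b-5p reads (y axis) in every library by tissue and group, with circles for title letter A, triangles for letter B and a bar at each group median. Brain lies highest, RBC and C3H WBC lie around 0, and 2 irradiated C3H RBC libraries lie at -2.22 and -2.78.

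The family did not vary as a unit. Over the 20 groups (5 tissues, 2 strains, irradiated or sham), the Spearman rho between the group means of mmu-miR-26a-5p and mmu-miR-26b-5p was 0.0361. Among 100 miRNAs with a mean of at least 10 RPM in every group, mmu-miR-26a-5p was most like miR-181a-5p (rho = 0.970), miR-29a-3p (0.940), let-7c-5p (0.938), miR-34a-5p (0.935) and miR-181c-5p (0.935). mmu-miR-26b-5p was most like miR-423-3p, but only with a rho of 0.565, followed by miR-141-3p (0.504), miR-142a-3p (0.457), miR-32-5p (0.445) and miR-93-5p (0.429). The points share libraries, totals and mice, so these values describe the 20 groups and carry no test.

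Passenger reads were scarce, and their split between the 26a hairpins differed by tissue. Lung libraries held 43 to 136 reads of both 26a passengers together, brain 30 to 137 and heart 17 to 101, against 2 to 56 in WBC and 0 to 7 in RBC. The share of mmu-miR-26a-2-3p, the passenger of the Ctdsp2 intron, among these reads was 83.1% ± 8.97 in C3H sham heart (SD, n = 8) and 81.8% ± 9.71 in C57 sham heart (n = 15). It was 47.6% ± 6.89 and 50.5% ± 9.75 in brain, and 25.6% ± 7.80 and 39.0% ± 8.56 in lung. Every heart library, irradiated ones included, lay between 63.2% and 96.6% and every lung library between 8.62% and 55.8%, with no overlap. Pooled over all libraries of a fraction, WBC held 17 of 110 reads in C3H mice (15.5%, 95% Wilson interval 9.88 to 23.4%) and 115 of 575 in C57 mice (20.0%, 16.9 to 23.5%). In RBC the pooled reads were 7 of 40 and 13 of 56. These intervals cover counting error only.

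This tissue comparison of the passenger share was chosen after its values were seen. Within sham mice heart exceeded lung by 57.5 ± 13.3 percentage points in C3H (8 of 8 mice, exact adjusted p = 0.00781) and by 42.8 ± 8.87 in C57 (15 of 15, exact adjusted p = 0.000183), both at the smallest p that sign changes allow before adjustment. Heart exceeded brain by 35.5 ± 11.6 and 31.3 ± 8.86 points in all mice of both strains, and brain exceeded lung by 22.0 ± 10.5 points in C3H (8 of 8) and by 11.5 ± 11.9 points in C57 (13 of 15, exact adjusted p = 0.00537). The share was thus higher in heart than in brain or lung, although mmu-miR-26a-5p itself stood lower in heart than in lung. In pooled C3H brain libraries 584 of 1202 passenger reads were mmu-miR-26a-2-3p (48.6%, 95% Wilson interval 45.8 to 51.4%). In pooled C57 brain libraries 756 of 1434 were (52.7%, 50.1 to 55.3%). Both intervals cover counting error only, and single C57 brain libraries ran from 35.6% to 70.4%. A passenger read reports a hairpin only as far as both passengers are kept and captured alike, which was not tested.

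Sham C57 males held a larger share of mmu-miR-26a-2-3p than females in each of lung, heart and brain, again a comparison chosen after the values were seen. Heart held 63.2% to 83.9% in 7 females and 83.8% to 93.1% in 8 males, with 7 males above every female. The male minus female difference was 15.8 points in heart (means 89.2% ± 3.11 and 73.4% ± 7.30, exact permutation p = 0.000311, adjusted over 3 tissues p = 0.000932), 11.4 points in lung (44.3% ± 7.19 and 33.0% ± 5.51, exact adjusted p = 0.00909) and 11.2 points in brain (55.7% ± 9.30 and 44.6% ± 6.56, exact adjusted p = 0.0205). Marker sums differed by sex in the same libraries. The leukocyte sum was 986 to 1592 RPM in females and 1672 to 2603 RPM in males in heart, and 2393 to 3833 against 3572 to 9748 RPM in lung, while the epithelial sum in brain was 352 to 41037 RPM in females (median 10473) and 172 to 2165 RPM in males (median 300.5). Their part in the difference was not tested. All C3H mice were female, so the sexes could be compared in C57 mice alone.

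**Figure D3:**
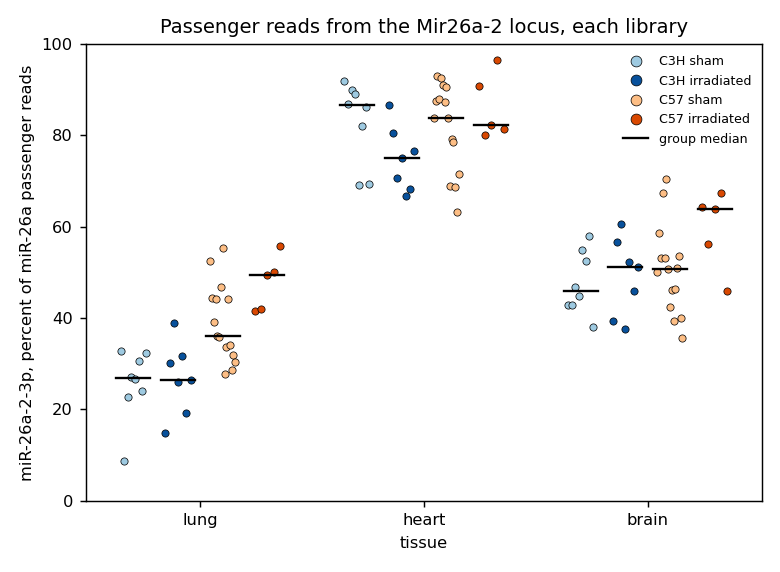
Percent of 26a passenger reads that are mmu-miR-26a-2-3p (y axis) in every lung, heart and brain library, coloured by group, with a bar at each group median. Heart libraries lie at 63.2% or above, lung libraries at 55.8% or below, and brain libraries between them, overlapping both.

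The main question of the design, what irradiation changed, was put to each member in one limma fit per tissue over voom values after quantile normalisation, with p-values adjusted over every miRNA tested. Quantile normalisation gives abundant miRNAs of equal rank equal values. In lung, the irradiated organ, both members were lower in irradiated C3H mice. mmu-miR-26a-5p was at 36752, 31903, 26634, 31753, 34184, 33321 and 30524 RPM in the 7 irradiated libraries against 28211 to 59542 (median 50193) in the 8 sham libraries. All irradiated libraries lay below the sham median, and 7 of 8 sham libraries lay above every irradiated one. The groups overlapped through sham replicate 2 alone. mmu-miR-26a-5p fell by 0.76 on the log2 scale (SE 0.23, 95% interval -1.22 to -0.30, limma adjusted p = 0.00992).

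mmu-miR-26b-5p moved by the same size. It was at 5804, 4787, 2833, 3724, 3818, 4150 and 3196 RPM in irradiated C3H lung and at 4337 to 7804 (median 6362) in sham lung, with 5 irradiated libraries below every sham library. It fell by 0.75 (SE 0.18, interval -1.12 to -0.37, limma adjusted p = 0.00199). In C3H lung 33.4% of the 350 miRNAs tested passed at an adjusted p of 0.05, so that a call in this tissue is common. Neither change reached 1.17 on the log2 scale, the minimum of a further call rule. Without sham replicate 2 the falls were 0.87 and 0.81 (limma adjusted p = 0.00384 and 0.00111). By title letter the normalised log2 difference was -0.61 for A and -0.91 for B for mmu-miR-26a-5p, and -0.38 and -1.05 for mmu-miR-26b-5p. Whether the letters differ in this was not tested. With the letter as a covariate both still passed (-0.77 and -0.76, limma adjusted p = 0.0101 and 0.00172).

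In irradiated C57 lung the values pointed the same way and did not pass. mmu-miR-26a-5p was at 14825, 35909, 17563, 20580 and 25040 RPM against 14137 to 53749 (median 34938) in 15 sham libraries, a log2 change of -0.56 (SE 0.23, interval -1.02 to -0.09, limma adjusted p = 0.0838). mmu-miR-26b-5p was at 2487, 4281, 2851, 2949 and 3583 RPM against 1850 to 6909 (median 4665), a change of -0.46 (SE 0.19, interval -0.83 to -0.08, limma adjusted p = 0.0838). For mmu-miR-26a-5p 4 of 5 and for mmu-miR-26b-5p 5 of 5 irradiated libraries lay below the sham median, inside the sham range throughout. Of the 350 miRNAs tested 16.6% passed. The call depended on the scaling: with TMM factors mmu-miR-26a-5p changed by -0.76 (edgeR, adjusted p = 0.00788) and mmu-miR-26b-5p by -0.66 (edgeR, adjusted p = 0.0145). Within letters A and B the normalised log2 differences were -0.29 and -0.77 for mmu-miR-26a-5p and -0.22 and -0.70 for mmu-miR-26b-5p. Among males alone (4 irradiated, 8 sham) the changes were -0.37 and -0.50 (limma adjusted p = 0.580 and 0.414).

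The C57 change minus the C3H change in lung was 0.20 for mmu-miR-26a-5p (SE 0.32, interval -0.45 to 0.86, limma adjusted p = 0.777) and 0.29 for mmu-miR-26b-5p (SE 0.26, interval -0.24 to 0.82, limma adjusted p = 0.649). A difference between strains was thus not detected, and the intervals leave room for one of either sign. In this test 0.286% of the miRNAs passed. Relative to the library total alone, without a further scaling, the median miRNA of lung moved by 0.27 (C3H) and 0.12 (C57) and not by -0.08 and -0.05, and the members then changed by -0.57 and -0.64 in C3H mice and by -0.63 and -0.50 in C57 mice.

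Of 30 cell type marker miRNAs tested, 8 passed in C3H lung (1 higher, 7 lower) and 3 in C57 lung (1 higher, 2 lower). Of all miRNAs 33.4% passed in C3H lung (16.3% higher, 17.1% lower) and 16.6% in C57 lung (9.43% higher, 7.14% lower). Of 2 endothelial markers (miR-126a-3p and miR-126a-5p) 1 fell in C3H lung and 0 in C57 lung, and of 4 cardiac muscle markers 4 and 1 fell, while 0 of 5 leukocyte and 0 of 4 erythrocyte markers passed by limma. Of 5 epithelial markers 1 fell in C3H lung and 0 in C57 lung, and of 5 mesenchymal markers 1 rose in C3H and 1 fell in C57 lung. Of 5 brain markers tested 1 fell in C3H and 1 rose in C57 lung. The endothelial sum was 297017 to 390147 RPM in irradiated and 380361 to 444378 RPM in sham C3H lung, and 285337 to 352260 against 212137 to 451412 RPM in C57 lung. The cardiac muscle sum was 2569 to 5226 RPM in irradiated and 4759 to 7515 RPM in sham C3H lung. The leukocyte sum was 5564 to 6829 RPM in irradiated and 2393 to 9748 RPM in sham C57 lung, and the epithelial sum 8381 to 22738 against 12588 to 22592 RPM in C3H lung. The mesenchymal sum was 39903 to 69762 RPM in irradiated and 47413 to 57360 RPM in sham C3H lung. The erythrocyte sum was 289 to 2823 against 181 to 1134 RPM in C3H lung and 81.0 to 471 against 106 to 2121 RPM in C57 lung. More miRNAs were detected in irradiated lung, at 542 to 620 against 532 to 550 in C3H and, without overlap, 579 to 616 against 480 to 567 in C57 mice. Their part in the fall of the members was not tested.

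**Figure D4:**
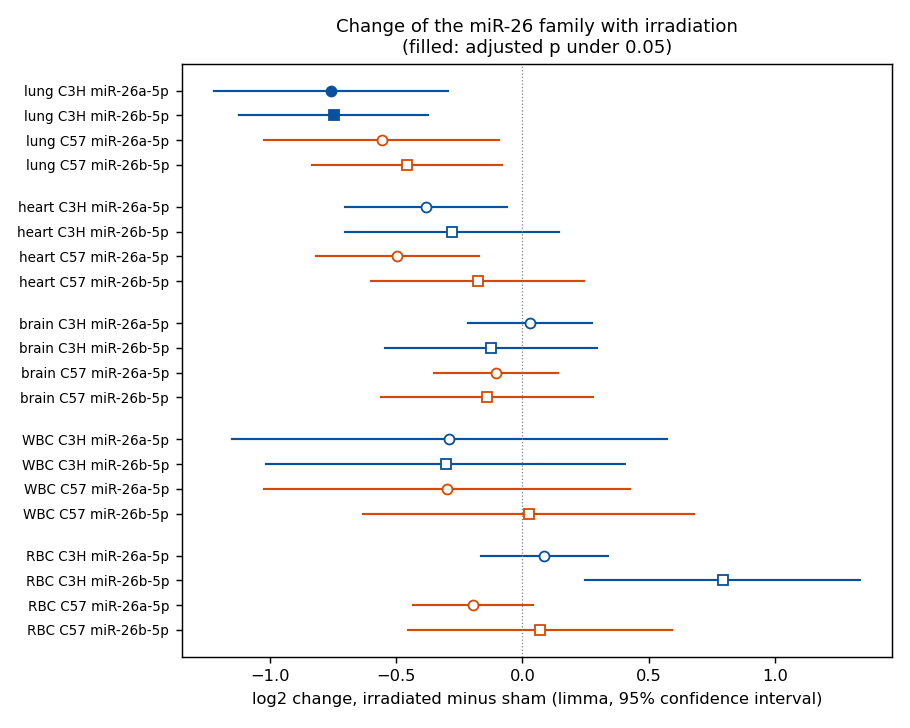
Log2 change, irradiated minus sham (x axis), of both members in each tissue and strain from the limma fits, with 95% intervals as lines, circles for mmu-miR-26a-5p, squares for mmu-miR-26b-5p and filled symbols for an adjusted p under 0.05. The filled symbols are both members in C3H lung, at -0.76 and -0.75.

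The passengers of the family did not pass in lung. In C3H mice mmu-miR-26a-1-3p changed by -0.36 (SE 0.17, limma adjusted p = 0.102), mmu-miR-26a-2-3p by -0.10 (SE 0.32, 0.854) and mmu-miR-26b-3p by -0.52 (SE 0.30, 0.191). In C57 mice the changes were -0.34, 0.15 and -0.51 (limma adjusted p = 0.144, 0.726 and 0.189). The log2 ratio of mmu-miR-26a-5p to its passengers was 10.46 ± 0.70 in irradiated and 11.23 ± 0.37 in sham C3H lung (exact permutation p = 0.0190) and 9.72 ± 0.45 and 10.48 ± 0.62 in C57 lung (exact permutation p = 0.0239). Neither passed after adjustment over 8 tests (exact adjusted p = 0.0955 for both). The passenger share of mmu-miR-26a-2-3p was 26.7% ± 8.0 against 25.6% ± 7.80 in C3H lung and 47.8% ± 6.04 against 39.0% ± 8.56 in C57 lung (exact adjusted p = 0.791 and 0.173). Among C57 males it was 45.7% against 44.3%.

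The heart also lies in the field. In irradiated C3H heart mmu-miR-26a-5p was at 8194, 9789, 5071, 13613, 14644, 13170 and 15835 RPM against 12163 to 17166 (median 14585) in sham heart, and mmu-miR-26b-5p at 1942, 2467, 1553, 2567, 2886, 2835 and 3026 against 2914 to 4338 (median 3234). For mmu-miR-26a-5p 3 and for mmu-miR-26b-5p 6 irradiated libraries lay below every sham library. The limma changes were -0.38 (SE 0.16, adjusted p = 0.0937) and -0.28 (SE 0.21, adjusted p = 0.333), where 16.7% of 312 miRNAs passed. The first 3 values listed are the libraries with title letter A. Within letter A the difference in mean log2 RPM of mmu-miR-26a-5p was -0.89, and within letter B it was -0.14. The corresponding limma changes were -0.54 and -0.28 (limma adjusted p = 0.0744 and 0.486). Of 30 cell type markers 5 fell and 0 rose in C3H heart, where 6.41% of all miRNAs fell and 10.3% rose. Of 4 cardiac muscle markers 1 fell, and their sum was 50690 to 246805 RPM in irradiated and 216176 to 291001 RPM in sham C3H heart. Of 4 erythrocyte markers 2 fell (sums of 331 to 1722 against 608 to 2740 RPM), of 5 leukocyte markers 1 fell (833 to 2656 against 1065 to 10253 RPM), and of 5 mesenchymal markers 1 fell (43820 to 71467 against 41644 to 81090 RPM). Their part in these values was not tested.

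In irradiated C57 heart mmu-miR-26a-5p was at 13606, 12568, 13132, 8084 and 16354 RPM against 12531 to 19816 (median 15776), a change of -0.50 (SE 0.16, interval -0.82 to -0.17, limma adjusted p = 0.0594). With C57 mice fitted alone it passed (-0.48, limma adjusted p = 0.0378). Among males alone (4 irradiated, 8 sham) the normalised log2 difference was -0.45 for mmu-miR-26a-5p and -0.01 for mmu-miR-26b-5p. mmu-miR-26b-5p was at 3906, 2721, 3803, 1728 and 3378 RPM against 1496 to 4847 (median 3899), a change of -0.18 (SE 0.21, limma adjusted p = 0.758). In C57 heart 3.53% of miRNAs passed and 0.321% fell. Among the 30 markers 1 fell there, which was 1 of 5 leukocyte markers. The lung change minus the heart change, fitted jointly, was -0.45 for mmu-miR-26a-5p and -0.57 for mmu-miR-26b-5p in C3H mice (limma adjusted p = 0.451 and 0.235) and 0.01 and -0.36 in C57 mice (limma adjusted p = 0.998 and 0.588). In C3H mice these values moved with the scaling, to -0.12 and -0.15 with library size alone and to -0.71 and -0.74 with TMM factors (limma adjusted p = 0.0690 and 0.0827). In these tests 6.68% and 5.61% of 374 miRNAs passed. The fall in lung was therefore not shown to differ from the heart values.

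Neither member passed in brain, which was shielded. mmu-miR-26a-5p changed by 0.03 (interval -0.22 to 0.27) in C3H and by -0.11 (-0.35 to 0.14) in C57 brain, and mmu-miR-26b-5p by -0.12 (-0.55 to 0.30) and -0.14 (-0.56 to 0.28), with limma adjusted p between 0.728 and 0.997. Among C57 males alone mmu-miR-26a-5p changed by -0.21 in brain (limma adjusted p = 0.210). The lower ends of the mmu-miR-26a-5p intervals lay above the C3H lung value of -0.76 in both strains. In brain 0% of 433 miRNAs passed in either strain by limma. At an unadjusted p of 0.05 there were 9 in C3H and 53 in C57 brain, and edgeR called 0 and 3 and DESeq2 0 and 9.

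In WBC the changes were -0.29 (interval -1.15 to 0.57) and -0.30 (-1.02 to 0.41) in C3H and -0.30 (-1.02 to 0.43) and 0.03 (-0.63 to 0.68) in C57 mice for mmu-miR-26a-5p and mmu-miR-26b-5p, with limma adjusted p between 0.938 and 0.991. These intervals are wide. Here 0% of 291 miRNAs passed by limma in either strain, 20 and 12 had an unadjusted p under 0.05, and edgeR and DESeq2 called 0. The irradiated C57 WBC libraries held 6572, 16318, 12243, 5731 and 5371 RPM of mmu-miR-26a-5p and 4032, 6766, 5444, 3187 and 2848 RPM of mmu-miR-26b-5p, the last value of each being the only female. All lay inside the ranges of sham mice of both sexes together, but 2 of the 4 irradiated males lay below every sham male for each member (9057 to 19488 and 4225 to 8703 RPM in 7 sham males). Among males alone the changes were -0.73 (SE 0.32, interval -1.44 to -0.03) for mmu-miR-26a-5p and -0.18 (SE 0.27, interval -0.77 to 0.42) for mmu-miR-26b-5p, and neither passed (limma adjusted p = 0.619 and 0.939).

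In irradiated C3H RBC 2 libraries stood apart, and neither member passed by limma. mmu-miR-26b-5p was at 2215, 3862, 2924, 2632, 2371, 6398 and 5644 RPM against 1538 to 2932 (median 2237) in sham RBC, and mmu-miR-26a-5p at 2486, 3782, 3453, 2143, 2492, 1374 and 821 against 2084 to 3288 (median 2706). Replicates 6 and 7 held both the highest mmu-miR-26b-5p and the lowest mmu-miR-26a-5p, and 338 and 318 miRNAs were detected in them, where the median RBC library held 394. With all 7, mmu-miR-26b-5p changed by 0.79 (SE 0.27, interval 0.25 to 1.34, limma adjusted p = 0.143), and mmu-miR-26a-5p by 0.09 (SE 0.12, limma adjusted p = 0.723). The former passed with edgeR (1.39, adjusted p = 0.00780) and DESeq2 (1.32, adjusted p = 0.00109). Without replicates 6 and 7 it was 0.30 (SE 0.21, limma adjusted p = 0.993). In RBC 0% of 229 miRNAs passed by limma in either strain, with 43 in C3H and 14 in C57 at an unadjusted p under 0.05, while edgeR called 12 and 1 and DESeq2 22 and 1. In C57 RBC the members changed by -0.20 and 0.07 (limma adjusted p = 0.920 and 0.991), and among males alone mmu-miR-26a-5p changed by -0.33 (limma adjusted p = 0.165). The irradiated C57 RBC libraries held 3723, 4414, 4921, 4244 and 5208 RPM of mmu-miR-26a-5p.

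The log2 ratio of the members was compared between irradiated and sham mice by exact permutation tests in all 10 combinations, and none passed after adjustment. The largest shift was in C3H RBC, from 0.28 ± 0.23 to -0.69 ± 1.26 (exact p = 0.00963, adjusted p = 0.0916), and it was -0.25 without replicates 6 and 7 (exact p = 0.0761). In C57 WBC the ratio went from 1.33 ± 0.24 to 0.98 ± 0.23 (exact p = 0.0183, adjusted p = 0.0916). In lung it was 3.02 ± 0.24 in irradiated and 2.95 ± 0.13 in sham C3H mice and 2.78 ± 0.19 and 2.90 ± 0.16 in C57 mice (exact adjusted p = 0.680 and 0.510). In lung these differences were smaller than the spread of the libraries. Outside lung, the C57 change minus the C3H change passed for neither member in any tissue (limma adjusted p from 0.760 to 1), with 0% of miRNAs passing in heart, brain, WBC and RBC. Of these miRNAs 51, 21, 5 and 12 had an unadjusted p under 0.05, and DESeq2 called 4 in heart, 1 in RBC and 0 in the others, while edgeR called 0.

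The sham mice were also compared by sex and by strain, and several of these calls depended on the scaling. In C57 sham WBC, mmu-miR-26a-5p was at 4712, 5756, 6153 and 7255 RPM in 4 females and at 9057 to 19488 (median 16747) in 7 males. mmu-miR-26b-5p was at 1576, 3061, 2675 and 2398 RPM in the females, in the same order, and at 4225 to 8703 (median 5832) in the males. No male overlapped a female for either member. Males exceeded females by 1.53 (SE 0.28, limma adjusted p = 0.00149) and by 1.13 (SE 0.29, limma adjusted p = 0.0228), where 11.1% of 341 miRNAs passed. The leukocyte marker sum ran alongside, at 16287 to 19887 RPM in females and 23819 to 33447 RPM in males, and so did the brain marker sum, at 974 to 1507 RPM in females and 1792 to 5833 RPM in males. Neither sum overlapped between the sexes, and their part in the difference was not tested. With TMM factors the differences were 0.71 and 0.70 and did not pass (limma adjusted p = 0.0582 and 0.0764).

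**Figure D5:**
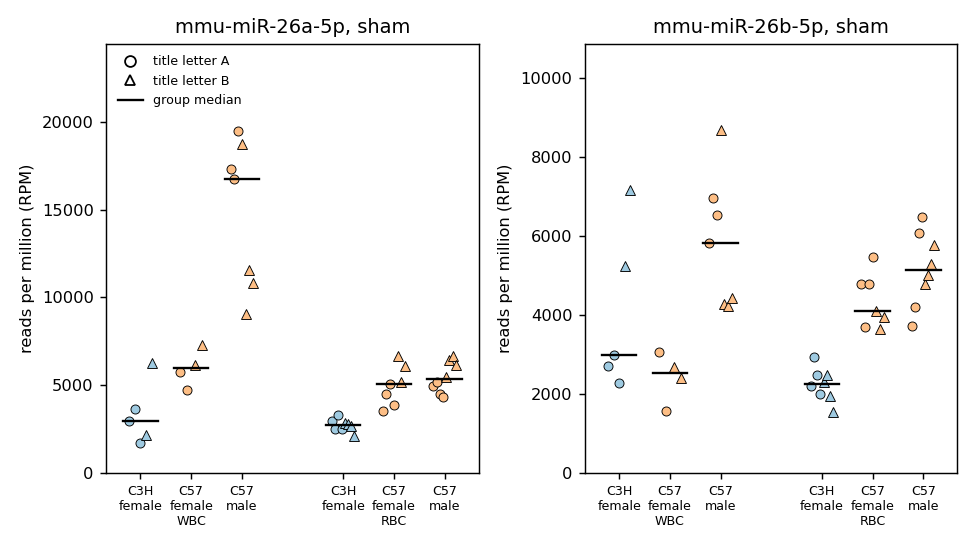
RPM of mmu-miR-26a-5p (left) and mmu-miR-26b-5p (right) in sham WBC and RBC libraries by strain and sex, with circles for title letter A, triangles for letter B and a bar at each group median. In C57 WBC every male lies above every female for both members, and in RBC C57 mice lie above C3H mice.

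In RBC the strains differed. mmu-miR-26a-5p was at 2084 to 3288 RPM in 8 C3H sham females and at 3511 to 6642 RPM in 7 C57 sham females, without overlap, a C57 minus C3H difference of 0.87 (SE 0.12, limma adjusted p = 1.9e-06). mmu-miR-26b-5p was at 1538 to 2932 and 3643 to 5460 RPM, a difference of 0.78 (SE 0.26, limma adjusted p = 0.0296). Of 278 miRNAs 18.3% passed between strains, and 14.4% between the sexes, where neither member did (0.17 and 0.22, limma adjusted p = 0.306 and 0.592). Within C57 sham RBC mmu-miR-26a-5p also moved with the title letter, at 3511 to 5197 RPM for letter A and 5149 to 6642 RPM for letter B. In WBC the C57 females held less mmu-miR-26b-5p than the C3H females on the normalised scale (-1.11, SE 0.31, limma adjusted p = 0.0122), where 22.3% passed, but with the library size alone it was -0.64 (limma adjusted p = 0.136). mmu-miR-26a-5p did not pass there (0.46, limma adjusted p = 0.289), and its size moved with the scaling. It was 0.98 with the library size alone and 0.30 with TMM factors (limma adjusted p = 0.0575 and 0.433). The erythrocyte marker sum in sham WBC was 30121 to 44647 RPM in C3H and 44256 to 63217 RPM in C57 females, and its part in these values was not tested. Strain is confounded with the month of sampling in all these values.

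In the solid organs one member differed by sex. mmu-miR-26a-5p in C57 sham brain was at 33873 to 52035 RPM in 7 females and 42648 to 59099 RPM in 8 males, a male minus female difference of 0.41 (SE 0.09, limma adjusted p = 0.00363), where 21.3% of 493 miRNAs passed. With TMM factors it was 0.15 and did not pass (limma adjusted p = 0.382). Beside the epithelial sum given above, the mesenchymal sum in brain was 6867 to 10694 RPM in females (median 7609) and 8945 to 10333 RPM in males (median 9288), the endothelial sum 95578 to 159234 against 122256 to 169445 RPM, and the brain marker sum 126311 to 153879 against 141797 to 172842 RPM. mmu-miR-26b-5p in brain gave -0.03 (limma adjusted p = 0.934). In heart the male minus female differences were -0.21 and -0.44 (limma adjusted p = 0.271 and 0.0795), where 34.9% of 367 miRNAs passed, and with TMM factors both passed (-0.52 and -0.60, limma adjusted p = 0.0151 and 0.0123). The leukocyte sum did not overlap between the sexes in heart, and the mesenchymal sum was 36273 to 44262 RPM in females and 43914 to 60126 RPM in males. The part of these sums in the differences was not tested. In lung they were -0.41 and -0.09 (limma adjusted p = 0.222 and 0.796), where 6.05% of 397 passed. Between strains neither member passed with quantile normalisation in lung (-0.26 and -0.48, limma adjusted p = 0.518 and 0.0835), heart (0.29 and 0.41, limma adjusted p = 0.152 and 0.109) or brain (-0.18 and 0.16, limma adjusted p = 0.180 and 0.627), where 14.4%, 31.6% and 15% of miRNAs passed. With TMM factors both passed in heart (0.54 and 0.49, limma adjusted p = 0.0132 and 0.0441).

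The miR-26 change in lung was set beside lists of miRNAs with related roles, chosen with results of these data already known. Of 22 other miRNAs that MYC is known to repress, 2 rose and 5 fell in irradiated C3H lung (median change -0.22, against -0.08 over all 350), and 2 rose and 2 fell in C57 lung (-0.10 against -0.05). Over all miRNAs tested 16.3% rose and 17.1% fell in C3H lung and 9.43% rose and 7.14% fell in C57 lung, so that the 7 and 4 calls in this list were close to the share of all miRNAs. The p53-induced miR-34a-5p rose by 1.57 (SE 0.16, limma adjusted p = 6.4e-10) and 1.17 (SE 0.15, limma adjusted p = 4.1e-07), while miR-30c-5p (-1.13 and -0.68) and miR-30a-5p (-0.77 and -0.66) fell in both strains. In heart 2 rose and 1 fell in C3H mice and 0 rose and 1 fell in C57 mice, where 10.3% rose and 6.41% fell and 3.21% rose and 0.321% fell over all miRNAs. The lymphocyte miR-150-5p fell by 1.63 and 0.85 there. In C3H heart miR-34a-5p rose by 1.27 (SE 0.16, limma adjusted p = 1.5e-07), and miR-146a-5p, which dampens inflammatory signalling, rose by 0.96.

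Of 12 miRNAs described as antifibrotic, 7 fell and 0 rose in irradiated C3H lung (median -0.49, against -0.08 over all, and 17.1% of all miRNAs falling), and 2 fell in C57 lung (median -0.20, against -0.05, and 7.14% falling). They included miR-101a-3p (-1.01, SE 0.17) and the muscle miR-133a-3p (-0.87, SE 0.20) in C3H mice and miR-326-3p (-0.47, SE 0.16) in C57 mice. The list shares miR-1a-3p and miR-133a-3p with the cardiac muscle markers, which all fell in C3H lung. It shares miR-200a-3p, miR-200b-3p and miR-200c-3p with the epithelial markers. Its count is therefore not separate from the marker counts above. In heart 0 of the 12 passed by limma in either strain, and at an unadjusted p of 0.05 there were 0 in C3H and 1 in C57 mice. Of 7 described as profibrotic, 3 rose in C3H lung, where 16.3% of all miRNAs rose (median 0.35): miR-34a-5p, miR-199a-3p (0.61, SE 0.11) and miR-21a-5p (1.5, SE 0.41). In C57 lung, where 9.43% of all rose and 7.14% fell, 1 rose and 1 fell, the latter being the smooth muscle miR-145a-5p (-0.53, SE 0.19), with a list median of 0.46. In C3H heart 2 of the 7 rose and 1 fell (median 0.11), where 10.3% of all miRNAs rose and 6.41% fell. In C57 heart 1 rose and 0 fell (median 0.01), where 3.21% of all rose. miR-21a-5p, raised in injured tissue of many kinds, rose in both strains (1.33 and 1.08). In C3H heart miR-34a-5p also rose (1.27, SE 0.16) and miR-145a-5p fell (-0.89, SE 0.28). miR-145a-5p and miR-199a-3p are also among the mesenchymal markers. In brain, WBC and RBC 0 miRNAs of the lists passed by limma, and at most 4 of a list had an unadjusted p under 0.05 in any of these contrasts. In C3H RBC these were 3 of the 4 profibrotic miRNAs tested (list median -0.55), against 43 of 229 over all miRNAs.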

How the data were processed

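Small RNA of 35 mice was sequenced from QIAseq miRNA libraries. The deposited tables hold raw counts, whole numbers per mature miRNA and library, which the authors made by trimming and aligning reads to mouse miRNAs (build mm10) in BaseSpace. Whether molecular identifiers were counted, and how reads fitting several miRNAs were placed, is not given in the sources used here, so that what is called a read here may be a molecule. Runs with few miRNA reads had been rejected. Totals ran from 1794995 to 7865102 counts per library, so counting error is small for the guides and large for the passengers.

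Groups were taken from the labels. Counts were filtered with filterByExpr (minimum count 10), turned into voom values with quantile normalisation and fitted with limma 3.58.1 in R 4.3.3, for each tissue over 4 groups (6 for sham strain and sex), with Benjamini-Hochberg adjustment over all miRNAs tested and a threshold of 0.05. RPM is the count per 1000000 of the library total. Ratios, tissue orders and passenger shares were tested by two-sided exact permutation tests in Python 3.11.15 with scipy 1.17.1, with 0.5 added to the counts in guide to passenger ratios. Alternatives were edgeR 4.0.16, DESeq2 1.42.0, other normalisations and filters, subsets and left-out libraries. The fits over 4 groups were run on counts simulated from the lung libraries, with limma, edgeR and DESeq2. The other designs, filters and subsets and the permutation tests were not run on simulated data.

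The members and the lists were chosen with earlier results of these data known. Named genes were the members, their passengers, miRNAs with the same seed, the 5 miRNAs most like each member by Spearman rho over the 20 groups, up to 3 per list with the smallest p in each lung and heart contrast, and the most abundant miRNA of a tissue. Replicates were separate mice. The same mice gave all tissues, but deviations from group means correlated weakly between tissues of a mouse (median 0.0348 over 318 pairs, 39.9% of pairs over 0.1). No replicate pair agreed within sampling noise (smallest chi-square per degree of freedom 15.5 over 746 pairs).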

Additional observations from a re-analysis of the deposited data

Results flagged for a closer look

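Of 45 groups and measures checked for a library far from its group, 2 held one, and chance alone would mark about 1 in 20. In C3H sham lung, replicate 2 held 28211 RPM of mmu-miR-26a-5p, while the other 7 libraries held 42390 to 59542 RPM. Without it the C3H lung changes of mmu-miR-26a-5p and mmu-miR-26b-5p were -0.87 and -0.81 (limma adjusted p = 0.00384 and 0.00111). In C3H sham RBC, replicate 2 had a log2 ratio of mmu-miR-26a-5p to mmu-miR-26b-5p of -0.24, while the others had 0.17 to 0.44. No cause of either value was tested.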

How the results depend on the processing

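The fall of both members in C3H lung kept its direction and its side of the threshold under every alternative listed in this section other than a minimum change of 1.17 on the log2 scale, which the values of -0.76 (mmu-miR-26a-5p) and -0.75 (mmu-miR-26b-5p) did not reach. Of all values recomputed under an alternative, 754 kept direction and side of the threshold, 27 passed it newly, 21 no longer passed and 66 changed sign. Of these 66, the C57 excess of mmu-miR-26a-5p in brain over lung was the only value that had passed. The causes were not tested. The fits without C3H lung sham replicate 2 were chosen after seeing the data, as were those of RBC without irradiated replicates 6 and 7, of heart by title letter, and the tests of the mmu-miR-26a-2-3p share between tissues and sexes. Depth limits the passenger readouts.

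In C57 lung mmu-miR-26a-5p passed with edgeR and TMM factors (-0.76), DESeq2 (-0.76), voom with TMM factors (-0.76), library size alone (-0.63) and library size without the 5 most abundant miRNAs (-0.53), and mmu-miR-26b-5p with edgeR (-0.66), DESeq2 (-0.66) and voom with TMM factors (-0.63). In C57 heart mmu-miR-26a-5p passed with 1 strain fitted at a time (-0.48). In C3H RBC mmu-miR-26b-5p passed with edgeR (1.39) and DESeq2 (1.32). The C57 RBC change of mmu-miR-26b-5p changed sign with DESeq2 (-0.058), with sex as a covariate (-0.015) and with library size alone (-0.0027). The C57 WBC change of mmu-miR-26b-5p did so among males (-0.18) and with sex as a covariate (-0.15). The C3H RBC change of mmu-miR-26a-5p did so with library size alone (-0.33) and without the 5 most abundant miRNAs (-0.12).

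The C57 minus C3H change of mmu-miR-26a-5p turned positive in WBC with DESeq2 (0.12), edgeR (0.16), 10 counts in every library (0.014), without the 5 most abundant miRNAs (0.11), voom with TMM factors (0.14) and library size (0.34), and in heart without the 5 most abundant miRNAs (0.020) and with library size (0.087). With library size it was -0.064 in lung and 0.13 in RBC. For mmu-miR-26b-5p in brain it was 0.0032 with DESeq2, 0.044 without the 5 most abundant miRNAs, 0.018 with TMM factors and 0.051 with library size. The C57 lung minus heart change of mmu-miR-26a-5p was -0.36 with TMM factors and -0.27 with library size. With the animal as a replicate block (estimated correlation 0.057) the lung minus heart changes were -0.45 and -0.57 in C3H mice and 0.0061 and -0.36 in C57 mice, and the block changed no call.

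For sham sex differences, edgeR gave 0.72 and 0.68 and voom with TMM factors 0.71 and 0.70 in WBC for mmu-miR-26a-5p and mmu-miR-26b-5p, none past the threshold, and 0.14 and 0.15 for mmu-miR-26a-5p in brain. In heart both passed with edgeR (-0.52 and -0.55) and with TMM factors (-0.52 and -0.60). mmu-miR-26b-5p in brain turned to 0.0019 with TMM factors and 0.16 with library size. Between strains both members passed in heart with edgeR (0.51 and 0.49) and with TMM factors (0.54 and 0.49), and mmu-miR-26b-5p in WBC no longer passed with library size (-0.64).

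For tissue orders, unpaired tests without the replicate block also passed C3H heart over WBC (2.29) and C57 heart over WBC (0.62) for mmu-miR-26a-5p and C3H RBC over WBC for the ratio (0.58). With totals free of the 5 most abundant miRNAs, mmu-miR-26a-5p gave 0.57 for C3H lung minus brain, -0.061 for C57 brain minus lung and 0.57 for C57 heart minus WBC, and mmu-miR-26b-5p gave -0.81 for C3H brain minus RBC and, in C57, 0.95 for RBC minus lung, -0.36 for lung minus WBC and 0.99 for heart minus brain. In irradiated in place of sham mice no exact test passed. With 5 irradiated C57 and at most 7 irradiated C3H mice and adjustment over 60 tests none could, whatever the values, so those tests say nothing of stability. There mmu-miR-26a-5p gave 2.21 (C3H brain minus heart), -0.0023 (C3H WBC minus RBC), 1.02 (C57 brain minus lung), 0.80 (C57 lung minus heart) and 0.90 (C57 WBC minus RBC). mmu-miR-26b-5p gave 0.71 (C3H lung minus heart), -0.36 (C3H brain minus RBC) and -0.41 (C57 lung minus WBC). The ratio gave 1.2 (C3H brain minus lung), 0.86 (C3H lung minus heart), 2.85 (C3H heart minus RBC), -0.36 (C3H RBC minus WBC), 0.95 (C57 brain minus lung), 0.72 (C57 lung minus heart), 1.08 (C57 heart minus WBC) and 1.05 (C57 WBC minus RBC).

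Within title letter A the irradiation change of the ratio was -0.032 in C3H lung and -0.015 in C3H heart, and within letter B 0.073 in C57 brain and 0.38 in C3H WBC. With at least 10 passenger reads per library, the guide to passenger change was 0.26 for 26a in C3H WBC and -0.39 for 26b in C3H heart.

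Leaving out 1 library at a time gave these ranges where a sign or call changed. The change of mmu-miR-26a-5p in C3H brain ran from -0.013 to 0.11, that of mmu-miR-26b-5p in C57 WBC from -0.14 to 0.22 and in C57 heart from -0.28 to 0.030. The C57 minus C3H change ran from -0.24 to 0.14 (mmu-miR-26a-5p, WBC), -0.17 to 0.062 (mmu-miR-26a-5p, heart) and -0.038 to 0.014 (mmu-miR-26b-5p, brain). The ratio change ran from -0.39 to 0.027 in C3H WBC, from -0.033 to 0.035 in C57 brain and from -0.42 to -0.28 in C57 WBC, where it passed without irradiated replicate 2. The guide to passenger change of 26a ran from -0.42 to 0.29 in C3H WBC, -0.21 to 0.38 in C57 WBC, -0.032 to 0.29 in C3H brain and -0.92 to -0.60 in C3H lung, passing there without irradiated replicate 1. For 26b it ran from 0.19 to 0.71 in C3H heart, passing without irradiated replicate 1, and from -0.25 to 0.29 in C57 heart. The change in the mmu-miR-26a-2-3p share ran from -0.484 to 3.36 points in C3H brain and from -0.914 to 3.11 points in C3H lung.

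Over all miRNAs, 57 rose and 60 fell in C3H lung, against 95 and 21 with library size alone, and 33 rose and 25 fell in C57 lung, against 60 and 12. Library size alone moved the median change of all miRNAs to 0.27 and 0.12 in lung, -0.17 in C3H heart, -0.34 in C3H WBC and -0.35 in C3H RBC. In C57 heart 11 miRNAs passed, against 17 with library size alone and 18 with DESeq2. In C57 brain 0 passed with limma, 3 with edgeR and 9 with DESeq2, and in C3H RBC 0, 12 and 22.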
